A study of Mus musculus with 7 samples.

Results

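The 6 genes that encode the retinoid receptors, Rara, Rarb, Rarg, Rxra, Rxrb and Rxrg, were examined as places where the receptors themselves were called on DNA in mouse liver. The members were taken by name, and a peak was given to a member when its midpoint lay in the gene span or within 50 kb of it. By this rule, 256 of the 245004 peaks in 6 lists belonged to the 6 genes.

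ChIP-seq, in which DNA bound by an immunoprecipitated protein is sequenced, was used to map RARα, RARβ and RXRα in liver of 3 months old male C57BL/6 mice. Mice on control diet were compared with mice whose diet contained retinoic acid (RA). The labels give 1 day of RA whereas the methods of the study name a longer treatment, so the duration is not settled. No genotype other than C57BL/6 is given for either diet, and the tissue is labelled as liver, which holds hepatocytes, stellate cells, Kupffer cells and other cells. There was 1 library per receptor and diet, so every difference below is a difference between 2 libraries, with no replicate check and no test. The 6 lists held 35521 (RARα control), 14968 (RARβ control), 61128 (RXRα control), 44296 (RARα RA), 29467 (RARβ RA) and 59624 (RXRα RA) peaks. Read depth behind the lists is unknown.

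Each peak carries the score of the peak caller, which grows as its p-value falls and was not scaled between libraries. Peaks were therefore also given their place within their own list: a peak at the top 1% has a score that only 1% of the peaks of that list reach. Both the place and the rank depend on the length of a list, and the RARβ control list was the shortest.

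The RARs bind RA and act as heterodimers with an RXR. The pair sits on direct repeats of a 6-base hexamer related to AGGTCA, most classically with a spacing of 5 bases, and also of 1 or 2. RXRs are in addition the partners of many other nuclear receptors, among them PPAR, LXR, FXR and PXR. Several of the receptor genes have more than 1 promoter. The inner promoter of Rarb, which gives rise to the RARβ2 transcript, is the classical example of a receptor gene that is itself a target of RA through such a repeat.

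Starts were taken from RefSeq on GRCm38.p6 (mm10), from 2 sources. The promoter table held all 6 members, with 13 starts. The outermost end of the gene span was counted as a start too, and at Rara, Rarb and Rxra it is the end of the span only, with no window in the promoter table. Rara spans 47143 bp on chromosome 11 (98927800 to 98974942, plus strand). Rarb is the longest, with 651493 bp on chromosome 14 (16430839 to 17082331, minus strand). Rarg spans 22585 bp on chromosome 15 (102234938 to 102257522, minus strand). Rxra lies on chromosome 2 (27676445 to 27763319, plus strand) and Rxrg on chromosome 1 (167598362 to 167639623, plus strand). Rxrb, at chromosome 17 (34031812 to 34038403, plus strand), is the shortest and spans 6592 bp. Exons and introns were not annotated here.

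The windows before 5 starts are shown because the results turn on them: 4 starts with a peak in all 6 lists, and 1 inner start of Rxra with 3 hexamers and no peak in any list. Each is the 250 bases before the start in the direction of transcription, from RefSeq, GRCm38.p6. Capitals mark an exact match on either strand to 1 of 4 hexamers, and a direct repeat of any pair of them with its spacer. The hexamers were AGGTCA as the consensus form, GGGTCA as a first variant, AGTTCA as another one and GGTTCA as the last.
Rarb inner start (chr14:16575477-16575726, minus strand): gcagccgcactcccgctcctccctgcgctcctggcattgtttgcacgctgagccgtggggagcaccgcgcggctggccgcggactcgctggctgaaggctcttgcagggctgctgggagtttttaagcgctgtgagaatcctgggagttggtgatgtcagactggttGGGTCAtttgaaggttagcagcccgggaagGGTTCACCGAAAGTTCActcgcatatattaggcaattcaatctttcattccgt
Rarg inner start (chr15:102246501-102246750, minus strand): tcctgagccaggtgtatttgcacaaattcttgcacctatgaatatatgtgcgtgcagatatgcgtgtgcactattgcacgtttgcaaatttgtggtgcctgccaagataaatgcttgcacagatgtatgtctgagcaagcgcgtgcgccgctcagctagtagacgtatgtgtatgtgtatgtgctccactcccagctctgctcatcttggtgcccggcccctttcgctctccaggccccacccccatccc
Rxrg inner start (chr1:167618015-167618264, plus strand): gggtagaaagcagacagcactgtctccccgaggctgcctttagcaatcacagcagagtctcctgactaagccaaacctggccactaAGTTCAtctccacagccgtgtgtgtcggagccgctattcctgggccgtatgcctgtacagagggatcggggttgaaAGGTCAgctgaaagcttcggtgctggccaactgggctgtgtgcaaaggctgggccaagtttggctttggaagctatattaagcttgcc
Rxrb outer start (chr17:34031562-34031811, plus strand): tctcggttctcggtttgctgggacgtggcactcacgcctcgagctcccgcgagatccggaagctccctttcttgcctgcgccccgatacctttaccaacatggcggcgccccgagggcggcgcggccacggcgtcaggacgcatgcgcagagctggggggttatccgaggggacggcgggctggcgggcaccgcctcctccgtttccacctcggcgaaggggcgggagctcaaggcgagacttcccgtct
Rxra inner start (chr2:27709042-27709291, plus strand): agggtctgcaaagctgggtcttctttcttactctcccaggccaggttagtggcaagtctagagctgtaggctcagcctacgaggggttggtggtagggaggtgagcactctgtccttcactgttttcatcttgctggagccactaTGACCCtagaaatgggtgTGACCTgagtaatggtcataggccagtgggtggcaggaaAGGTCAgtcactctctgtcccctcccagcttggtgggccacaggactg

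The Rarb window holds a direct repeat spaced by 5, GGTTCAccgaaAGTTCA, where capitals mark the hexamers, at chr14:16575513-16575529, with its centre 45 bp before the start. It was the only direct repeat with a spacing of 1, 2 or 5 in the 13 member windows. Such windows are 300 bases long, with 250 before and 50 after the start. Over all 32851 windows of this length, 0.0974% held a repeat spaced by 5, 0.268% one spaced by 2 and 0.222% one spaced by 1. A single hexamer was in 43.7% of all windows and in 7 of the 13 member windows, so it was common in both. The Rxrg window holds AGTTCA farther from the start and AGGTCA nearer to it, without such a spacing, and the Rarg and Rxrb windows shown hold no match. A match describes the letters only and says nothing of what is bound there.

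At the inner start of Rarb, which encodes RARβ, a peak was called in all 6 lists. This start lies 506855 bp inside the outermost start of the gene, an end of the span without a promoter window, where no list had a peak within 1 kb. The peak midpoints lay between 69 bp before and 112 bp after the inner start, and all 6 peaks covered both the start and the direct repeat shown above. In the RARβ control list the peak scored 124.19 and ranked 3247 of 14968 (top 21.7%). Under RA it scored 787.94 and ranked 117 of 29467 (top 0.397%). For RARα, the score was 264.57 in the control list (rank 6043 of 35521, top 17.0%) and 481.23 under RA (rank 1745 of 44296, top 3.94%). RXRα had already a high peak in the control list, with a score of 631.3 (rank 3341 of 61128, top 5.47%), and one of 950.19 under RA (rank 1116 of 59624, top 1.87%). The peak thus stood nearer the top of the RA list than of the control list for all 3 receptors, by rank as well as by percent, and this was the highest peak of the Rarb window in every list.

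The change in place was set beside that of all peaks shared between the diets. For RARβ the place moved by a factor of 54.6 as a percent and of 27.8 as a rank, and 33 of 11345 shared RARβ peaks (0.291%) moved towards the top by at least as much. For RARα the factors were 4.32 and 3.46, reached by 745 of 29896 peaks (2.49%), and for RXRα they were 2.92 and 2.99, reached by 1456 of 48122 peaks (3.03%). Among the 3 receptors, the move of the RARβ peak was therefore the rarest one in its own list, in 1 library per diet. The RXRα move was not particular to Rarb. As a percent it was 2.85 at the inner start of Rxrg (reached by 3.24% of shared peaks), and 2.79 at the innermost start of Rara (3.37%). At the outer start of Rxrb it was 2.62 (4.04%), whereas at the inner start of Rarg RXRα moved away from the top. A direct repeat spaced by 5 occurred near a start of 31 genes. The site lay under a peak of at least 1 list in 8 of these genes, and under a peak of all 6 lists only in Rarb. Among the 8 was also Cyp26a1, the RA-degrading cytochrome P450, with a score of 79.52 in the RARα control list (top 68.2%) and of 490.32 in the RARα RA list (top 3.68%), and with no RARβ control peak at its site. Gm32342, which adjoins it, was counted among the 8 with the same repeat and the same peaks, so that site was counted for both genes.

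**Figure D1:**
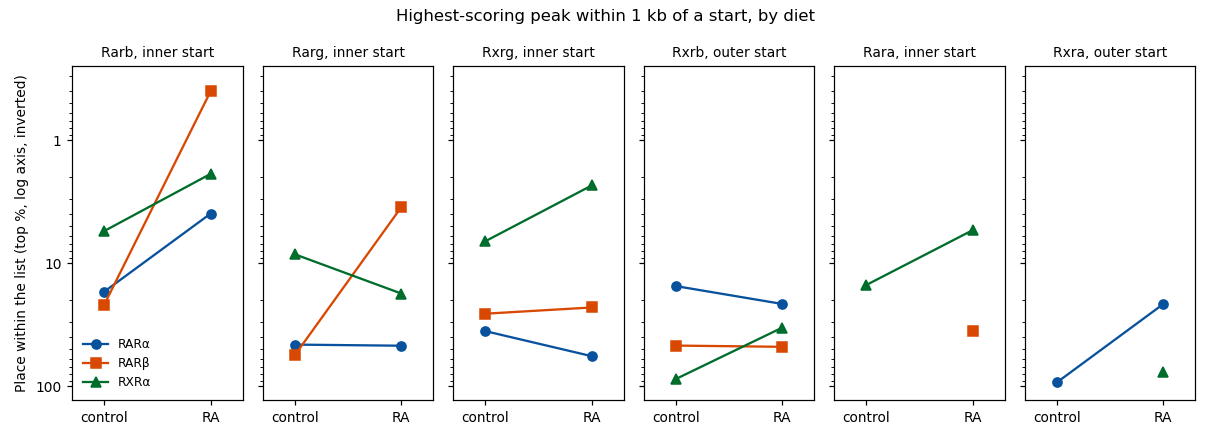
Place within its list (vertical axis, in top %, log scale with the top of the list upwards) of the highest peak within 1 kb of 6 receptor gene starts under control diet and RA, for RARα (circles), RARβ (squares) and RXRα (triangles). Each point is 1 library. At the inner start of Rarb all 3 lines go up, and RARβ moves from 21.7% to 0.397%, whereas at the other starts shown the lines go in different directions or lack a point.

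Rarg, whose product RARγ is the RAR best known from skin, also carried a peak near its inner start in all 6 lists. This start lies 11022 bp inside the outermost start, which again had no peak within 1 kb in any list. The midpoints of the highest peak per list lay 552 bp to 990 bp before the start. Of these, only the RARβ RA peak reached the start itself. A second, lower RARα peak under RA (96.11, top 62.1%) also covered the start, with its midpoint 72 bp after it. RARβ scored 70.88 in the control list (rank 8384, top 56.0%) and 336.39 under RA (rank 1032, top 3.50%). This move, by a factor of 16.0 as a percent and of 8.12 as a rank, was reached by 206 of 11345 shared RARβ peaks (1.82%). For RXRα the order of the diets was the opposite, with 529.07 in the control list (rank 5167, top 8.45%) and 366.45 under RA (rank 10510, top 17.6%). The highest RARα peak had 121.7 (rank 16304, top 45.9%) and 131.46 (rank 20766.5, top 46.9%), so its place was nearly the same as a percent and lower under RA as a rank.

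At Rara, which encodes RARα, no start had a peak in all 6 lists. Its outermost start, again an end of the span without a promoter window, and the start 11911 bp inside had none in any list, although the window of the latter holds 4 hexamers. At the adjoining starts 9896 bp and 9918 bp inside, peaks were called for RARα in the control list (65.33, top 80.6%), for RARα under RA (84.93, top 68.9%) and for RXRα under RA (150.21, top 48.4%). All 3 of these peaks were in the middle or lower part of their lists. The innermost start, 37072 bp inside, had RXRα peaks of 390.36 in the control list (top 15.0%) and 663.11 under RA (top 5.38%), and a RARβ peak of 126.98 under RA only (top 35.5%). No RARα peak lay within 1 kb of this start in either list. The only Rara region called in all 6 lists was 23854 bp inside the outermost start, with RXRα scores of 657.7 (top 4.93%) and 600.35 (top 6.94%). There RARβ had 132.2 (top 19.1%) and 150.47 (top 26.6%), and RARα had 74.72 (top 71.9%) and 74.14 (top 76.7%).

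Rxra encodes RXRα, the RXR that predominates in hepatocytes. The outer end of its span, 756 bp from an annotated start that lay within 1 kb of the same RARα peaks, was called for RARα in the control list with 54.68 (rank 33158.5, top 93.3%) and under RA with 245.2 (rank 9521, top 21.5%). Within 1 kb of this end, RXRα had a peak under RA only, at 79.42 (top 76.8%), and RARβ in neither list. More than 1 kb upstream of it, however, a higher RXRα peak was called under both diets. It scored 159.68 in the control list (top 44.9%) and 253.8 under RA (top 28.8%), so RXRα was not confined to the RA list in this region. The RARα move, by a factor of 4.34 as a percent and of 3.48 as a rank, was reached by 732 of 29896 shared RARα peaks (2.45%). The inner start 32847 bp inside, whose window is shown above, had no peak in any list. The only Rxra region called in all 6 lists lay upstream, at an offset of -36442 bp from the outermost start, and it was the highest peak of the Rxra window in both RXRα lists and in the RARβ control list. Its RXRα scores were 507.6 (top 9.17%) and 544.57 (top 8.63%), against 109.2 and 74.66 for RARα and 69.95 and 87.93 for RARβ, in the order control and RA.

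At the outer start of Rxrb, which encodes the widely expressed RXRβ, a peak was called in all 6 lists. RARα scored 279.34 in the control list (top 15.3%) and 245.59 under RA (top 21.4%). RARβ had 79.51 (rank 6997, top 46.7%) and 102.64 (rank 14103, top 47.9%). RXRα went from a score of 63.44 near the bottom of the control list (rank 53495, top 87.5%) to 222.29 under RA (rank 19918, top 33.4%). A second region inside Rxrb, 4981 bp from its start and nearer to a start of the collagen gene Col11a2, had RXRα peaks of 471.94 and 437.01 and a RARβ peak of 318.27 under RA only (top 4.08%), and no RARα peak.

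Rxrg encodes RXRγ, known mainly from muscle and brain. Its inner start, 19903 bp inside, was covered by a peak in all 6 lists, and its outermost start had none within 1 kb. RXRα was highest there, with 587.26 in the control list (rank 4049, top 6.62%) and 892.67 under RA (rank 1388, top 2.33%). RARα stood lower under RA, with 155.4 in the control list (rank 12665.5, top 35.7%) and 106.01 under RA (rank 25260.5, top 57.0%). RARβ had 112.98 (rank 3852, top 25.7%) in the control list and 162.17 (rank 6745, top 22.9%) under RA, so its place was higher under RA as a percent and lower as a rank. A second region 38820 bp inside was high for RARα only, with 256.32 in the control list (top 18.0%) and 397.4 under RA (top 7.37%). There RXRα had a peak of 50.18 at the bottom of its control list (top 99.8%), and RARβ had none.

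Thus 4 of the 6 genes, Rarb, Rarg, Rxrb and Rxrg, had a peak within 1 kb of one of their starts in all 6 lists, as did 28.7% of 17492 protein-coding genes. Counted per list, members with such a peak were 6 of 6 for RARα control (50.9% of 17492 protein-coding genes), 4 for RARβ control (37.3%), 5 for RXRα control (44.7%), 6 for RARα RA (51.0%), 5 for RARβ RA (45.0%) and 6 for RXRα RA (46.6%). With the outermost start alone, the members counted were 1 or 2 in every list. The share over all genes was not taken for this count, so it has no background. At Rara, Rarb and Rxra the outermost start is also only the end of the span. Of the 13 starts with a promoter window, 9 had a peak within 1 kb in at least 1 list. The 6 windows without a hexamer were among these 9, where 47.7% of all such windows had a peak, and so were 3 of the 7 with one, where 40.4% had. These 6 windows are 4 places, since a pair at Rara and a pair at Rxrb adjoin and share their peaks, so they count some peaks more than once.

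**Figure D2:**
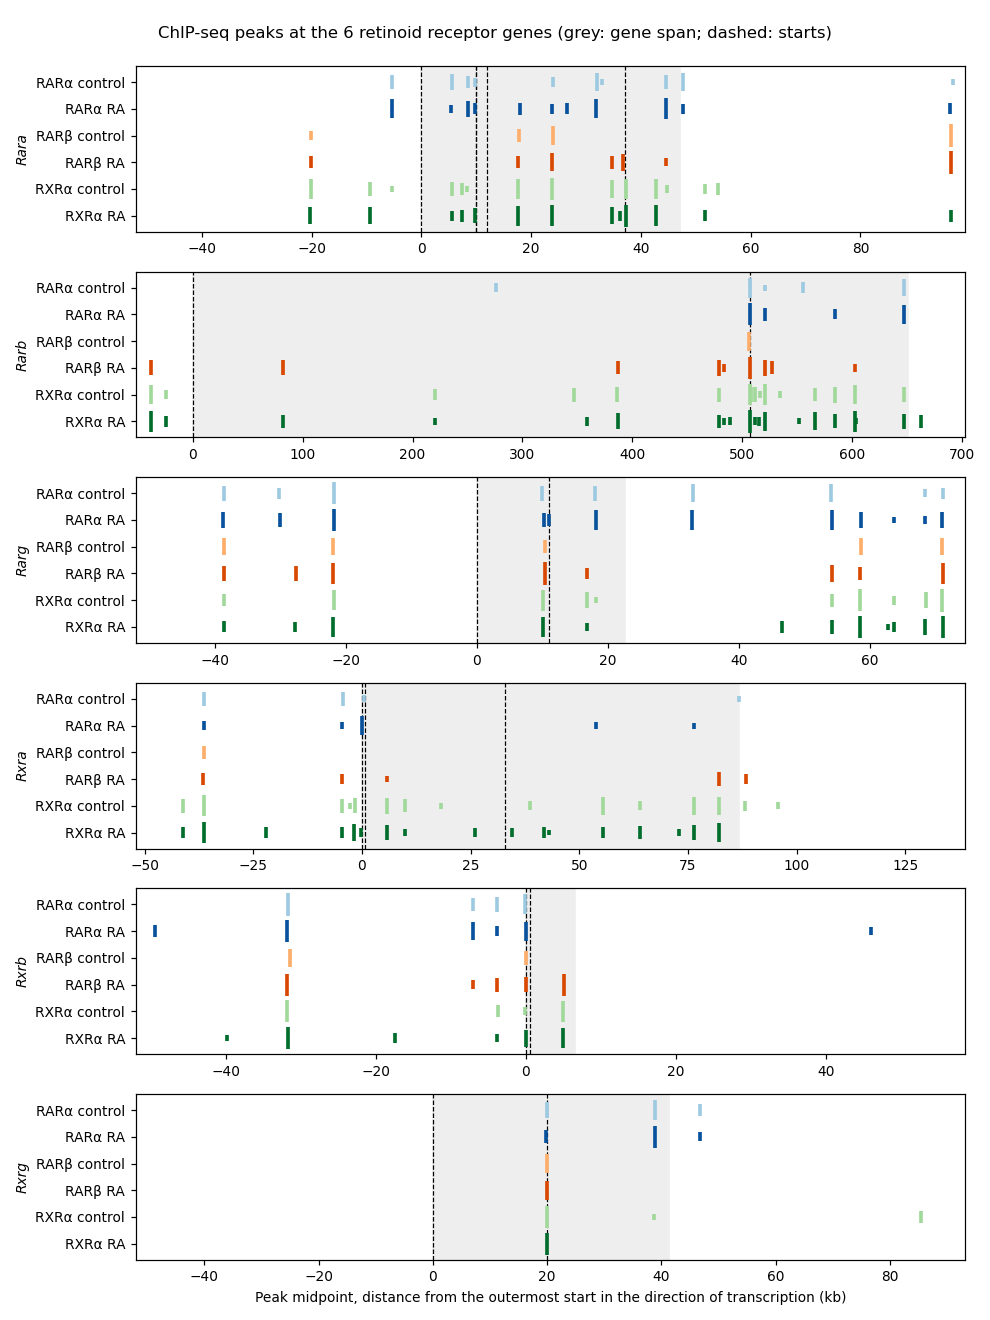
Peaks at the 6 receptor genes by distance of their midpoint from the outermost start (horizontal axis, in kb, in the direction of transcription), 1 row per list. Grey marks the gene span, dashed lines mark starts, and longer ticks stand for peaks nearer the top of their own list. In Rarb, the inner start at 506855 bp has a tick in all 6 rows and the outermost start has none.

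Every member had at least 1 peak in its window in every list. Over all 21887 protein-coding genes, a peak in the window was found for 83.0% (RARα control), 69.7% (RARβ control), 83.1% (RXRα control), 84.2% (RARα RA), 77.2% (RARβ RA) and 83.7% (RXRα RA), so having a peak was common. Member peaks numbered 35, 14, 62, 41, 35 and 69 in the same order of lists. The RAR genes held 24, 10, 40, 27, 24 and 45 of these, and the RXR genes held 11, 4, 22, 14, 11 and 24. Windows differ in length, so peaks per 100 kb were compared. The median member had 5.89 RXRα peaks per 100 kb in the control list and 7.23 under RA, where the median over all genes was 3.72 and 3.63. For RARβ it had 1.29 and 3.68, against 0.952 and 1.91 over all genes, and for RARα it had 2.95 and 4.15, against 2.63 and 3.02. All of these member medians lay within the middle range of all genes except RXRα under RA, where the upper quartile of all genes was 6.75.

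Counts differed between members and receptors. Rarb had 16 RXRα peaks in the control list and 20 under RA, but for RARβ only 1 in the control list against 9 with RA, and 5 and 4 RARα peaks. Rxra was similar, with 15 and 17 RXRα peaks, 1 and 5 RARβ peaks and 4 and 5 RARα peaks. In Rara and Rarg the receptors were nearer to each other. Rara had 10 and 11 RARα, 4 and 7 RARβ and 14 and 13 RXRα peaks, and Rarg had 9 and 12, 5 and 8, and 10 and 12. Rxrg had the fewest, with 3 RARα peaks in both lists, 1 RARβ peak in both, and 3 and 1 RXRα peaks. The number of RARβ peaks was thus higher in the RA list for 5 of the 6 members, and the whole RARβ RA list was also longer. For the length-scaled counts given above, the RARβ median over all genes also rose, from 0.952 to 1.91. With every list cut to the same length, the members had 14 RARβ peaks in the control list and 18 under RA. The share of all genes with more RARβ peaks under RA was not taken, so the count of 5 has no background.

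**Figure D3:**
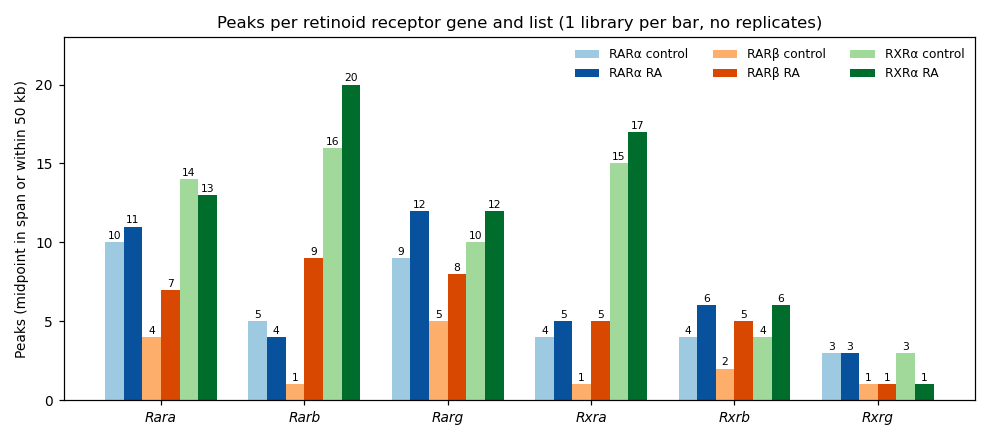
Number of peaks with their midpoint in the gene span or within 50 kb (vertical axis) for each receptor gene, with 1 bar per list and 1 library per bar. RXRα bars are the tallest at Rara, Rarb and Rxra, and the RARβ control bar is 1 at Rarb, Rxra and Rxrg.

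Peaks of the members were compared between diets by overlap, and a shared peak had to overlap one in the second list over 25% or more of both widths. Exact (Clopper-Pearson) 95% intervals are given and cover counting error only. All 14 RARβ control peaks were shared with the RARβ RA list (100%, 76.8% to 100%), where 75.8% of all peaks of that list were. In the other direction, 14 of 35 RARβ RA peaks were shared (40%, 23.9% to 57.9%), close to 38.2% over the list. The 100% of RARβ control peaks depended on the setting. It fell to 64.3% (9 of 14) with an overlap of 50%, and to 71.4% (10 of 14) with every list cut to the same length. It stayed at 100% with an overlap of 1 bp, a score limit of 100 or a window of 10 kb. The whole-list share was not taken at these settings, so the 100% does not set the members apart. For RARα, 30 of 35 control peaks were shared with RA (85.7%, 69.7% to 95.2%; whole list 84.2%) and 30 of 41 RA peaks with control (73.2%, 57.1% to 85.8%; whole list 68.4%). For RXRα, 48 of 62 control peaks were shared (77.4%, 65.0% to 87.1%), near 78.7% over the list. Of the 69 RXRα RA peaks, 47 were shared with control (68.1%, 55.8% to 78.8%), which was below the 80.3% of the whole list. With a score limit of 100 in both lists, the member share was 82.5%, and the whole-list share was not taken at that limit.

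RXRα is the partner of both RARs, so RAR peaks were compared with the RXRα list of the same diet. At the members, 13 of 14 RARβ control peaks (92.9%, 66.1% to 99.8%) and 31 of 35 RARβ RA peaks (88.6%, 73.3% to 96.8%) overlapped an RXRα peak. The whole lists had 77.8% and 89.9%. For RARα, 23 of 35 control peaks (65.7%, 47.8% to 80.9%) and 25 of 41 RA peaks (61.0%, 44.5% to 75.8%) did so, against 61.1% and 61.7% of the whole lists. Each of these 4 intervals includes the share of its whole list. These shares depend on list length. With every list cut to the 14968 highest scores, the member shares were 33.3% for RARα control, 21.4% for RARα RA, 78.6% for RARβ control and 61.1% for RARβ RA. The whole-list shares were not taken at this length, so these 4 values have no background.

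Merging the peaks of the 6 lists wherever they overlapped gave the members 94 regions, of which 57 lay inside a gene span. The number was 26 at Rarb, 21 at Rxra, 19 at Rara, 15 at Rarg, 9 at Rxrb and 4 at Rxrg. Only RXRα lists called 35 of the 94, among these 13 at Rarb and 13 at Rxra, where 36.3% of all 87802 regions of the series were RXRα only. RARα alone was called in 12 (16.4% of all regions). Just 1 region, inside Rarb and 20494 bp from its inner start, was called for RARβ only (1.99% of all). RARβ was called under RA and not under control in 21 regions (19.8% of all), with the RARβ RA list being the longer one. Of these, 16 had an RXRα peak in the control list, where 86.7% of such regions over the series had. No member region was called for RARβ under control and not under RA (3.6% of all). Called in all 6 lists were 10 of the 94 regions, where 9.75% of all regions were.

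**Figure D4:**
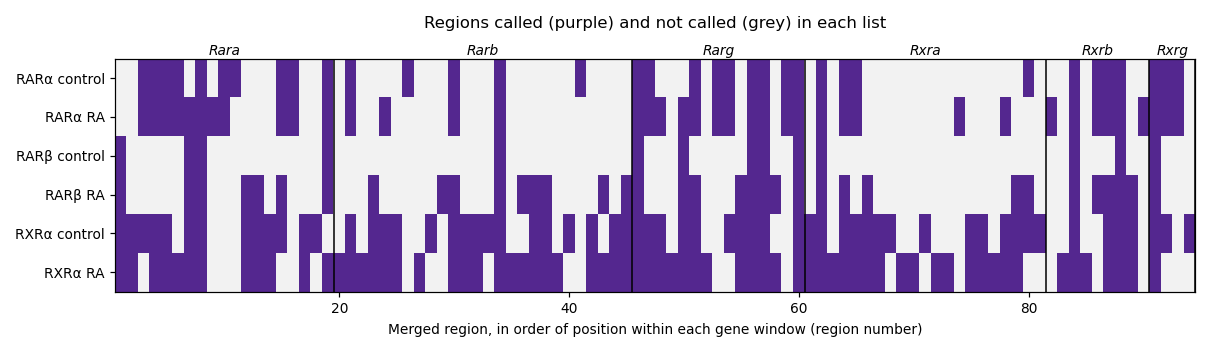
The 94 merged regions at the receptor genes (horizontal axis, in order of position within each gene window) and the 6 lists (rows), with purple for a region called in a list and grey for one not called. Whole columns in purple are the 10 regions called in all 6 lists, and the RARβ control row has the fewest called regions.

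Of the 10 regions called in all 6 lists, 6 lay nearest to a start of the member itself, namely those at Rara, Rarb, Rxra and Rxrg, the inner start of Rarg and the outer start of Rxrb. The region at Rxrb also adjoins a start of Slc39a7. The other 4 were at neighbouring genes. In the Rarg window, the highest RXRα peaks of any member were 2624 bp from the start of Csad, an enzyme of taurine synthesis, with scores of 1735.23 (rank 50) in the control list and 1707.88 (rank 73) under RA. Peaks at the starts of Mfsd5 and Espl1 were also in the Rarg window, and the one at Mfsd5 was the highest RARα peak there, with 459.71 (top 4.45%) and 369.42 (top 9.03%). In the Rxrb window, a peak 306 bp from the start of the class I histocompatibility gene H2-K1 was the highest in all 6 lists, with RARα scores of 519.49 and 463.67 and RXRα scores of 622.73 and 625.35. In the Rara window, the highest RARβ peak was 160 bp from the start of Top2a, a topoisomerase of dividing cells, with 387.97 (rank 290) in the control list and 651.57 (rank 173) under RA, whereas RXRα had no peak there in the control list and 105.78 under RA. The nearest start was a start of the member for 64 of the 94 regions, and for all 21 at Rxra but only 3 of 15 at Rarg and 1 of 9 at Rxrb. Nearness assigns no target.

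The rest of the retinoid pathway was described in the same way. Of 14 genes for carriers, synthesis and breakdown of RA, 14 had a peak in the window in both RARα lists and both RXRα lists, 12 for RARβ control and 13 for RARβ RA. Over all genes, the shares with a peak in the window ran from 69.7% (RARβ control) to 84.2% (RARα RA), so such counts are common. Of the 10 with a usable start, a peak lay within 1 kb for 4 (RARα control, 50.9% of all genes), 2 (RARβ control, 37.3%), 5 (RXRα control, 44.7%), 5 (RARα RA, 51.0%), 3 (RARβ RA, 45.0%) and 5 (RXRα RA, 46.6%). Dhrs3, which reduces retinaldehyde, and Aldh1a1, which oxidises it to RA, had one in all 6 lists, as did 28.7% of all genes. Cyp26a1 had one in every list except RARβ control. Of 13 RXR partner receptors, 13 had a peak in the window in every list except RARβ control, where 10 did. For the 12 with a usable start, the same order of lists gave 10, 3, 10, 11, 9 and 10 with a peak within 1 kb. The shares over all genes are those given above in this paragraph. Nr1h3 and Nr1h2, which encode the LXRs, had a peak within 1 kb in all 6 lists.

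Marker genes of the liver's cell types were used only as a check of the tissue, since a peak does not measure expression. All 5 hepatocyte markers had an RXRα peak in the window in both lists, as did all 5 stellate cell markers, and 4 and 3 of 5 Kupffer cell markers did. Over all genes, 83.1% (control) and 83.7% (RA) had one. The median best place was the top 2.11% and 1.98% for hepatocyte markers in the RXRα lists, 40.6% and 50.9% for stellate cell markers and 73.2% and 79.9% for Kupffer cell markers. The lists overlapped: the stellate cell marker Pdgfrb, with a best RXRα peak at the top 7.19% and 9.91%, stood above the hepatocyte markers Tat and Ttr. In the RARα control list, the Kupffer cell marker Cd68 (top 1.26%) and the stellate cell marker Des (top 1.27%) stood above every hepatocyte marker. The cells in which the receptor gene peaks arose were not tested.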

How the data were processed

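ChIP-seq was performed by the authors for RARα, RARβ and RXRα in liver under 2 diets, with 1 library each and 1 input library, which was not used here. Single-end reads of 35 bp were processed by the authors with CASAVA 1.4 and aligned to mm10 with Bowtie, per the labels. Peaks were called with MACS, per the study's methods, which describe RXRα and RARα and may not hold for every list here. The deposited score of each peak rises with the negative log10 of the caller's p-value and was at least 50 in all lists. It was not normalized between lists, and it was used for ranks within a list. No count of reads was given with the lists. The paper gives uniquely mapped reads for RXRα and RARα. It describes no RARβ ChIP and names a longer treatment, so those reads may belong to other libraries. Depth and input signal are therefore unknown here.

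Midpoints were assigned to gene spans of RefSeq GRCm38.p6 extended by 50 kb. The build was checked: 12.9% to 39.9% of peaks were within 1 kb of starts of this build, against 3.18% to 5.51% with starts of NCBIM37. Starts were those of promoter windows of the same build plus the outer end of the gene span, for members and background alike, and 17492 of 21887 protein-coding genes had a start with a strand. Ties took their mean rank. Python 3.11.15, numpy 2.4.6, pandas 2.3.3, scipy 1.17.1 and matplotlib 3.10.9 were used. The code for overlap, merging, windows, distance to starts and repeats was tested on simulated data, and the rank code was not.

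Named were the 6 members, their regions within 1 kb of a start or called in all 6 lists, the highest peak per list, neighbours with a nearer start, and the 3 genes most like each member. Other genes and regions were chosen after their values were seen. The members and lists were chosen with earlier results of these data known. Alternatives were other windows, overlaps, a score limit of 100 and equal list length. An alignment of the 6 proteins was planned and not run, because protein sequences were not used here.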

Additional observations from a re-analysis of the deposited data

Results flagged for a closer look

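At 3 starts the place of the peak moved in opposite directions between the diets for different receptors. This is 1 library per receptor and diet, and the difference was not tested. Each value is the top percent in the control list minus that under RA, subtracted between 2 receptors, in percentage points. At the inner start of Rarg, RARβ moved towards the top under RA, whereas RXRα moved away from it and RARα hardly moved: RARα minus RARβ was -53.5 points and RARβ minus RXRα was 61.7 points. At the outer start of Rxrb, RXRα moved towards the top, whereas RARα moved away and RARβ hardly moved: RARα minus RXRα was -60.2 points and RARβ minus RXRα was -55.2 points. At the inner start of Rxrg, RARα moved away from the top, whereas RXRα and RARβ moved towards it: RARα minus RARβ was -24.2 points and RARα minus RXRα was -25.7 points. The RARβ move at Rxrg was 25.7% to 22.9% as a percent and 3852 to 6745 as a rank, so its direction depends on which of these is used. By rank, RARβ at Rxrb went from 6997 to 14103 and RARα at Rarg from 16304 to 20766.5, both away from the top. That these 2 hardly moved therefore holds for the percent only.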

How the results depend on the processing

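No paired analysis was possible because there was 1 library per receptor and diet, which also left no replicate to leave out. Of 140 alternatives to 34 results, 91 moved the value by less than the spread allowed and 49 by more. Any overlap with the window, a start distance of 10 kb and an overlap of 1 bp moved none beyond it. An overlap of 50% lowered the share of RARβ control peaks found under RA to 64.3%. Lists are given below in the order RARα control, RARβ control, RXRα control, RARα RA, RARβ RA, RXRα RA where all are named. With scores of at least 100, member peaks were 20 (RARα control), 6 (RARβ control), 22 (RARα RA), 18 (RARβ RA) and 40 (RXRα RA). RAR gene peaks were then 13, 4, 16, 14 and 28 in the same 5 lists, and RXR gene peaks were 7, 2, 14, 6, 4 and 12 in all 6. Members with a peak near a start fell to 2 for RARβ control, and the share of RXRα RA peaks found under control rose to 82.5%. With every list at 14968 peaks, member peaks were 12 (RARα control), 17 (RXRα control), 14 (RARα RA), 18 (RARβ RA) and 17 (RXRα RA). RAR gene peaks were 7, 13, 9, 14 and 12, and RXR gene peaks 5, 4, 5, 4 and 5, in the same 5 lists. Members with a peak near a start were 3 for RARα control and 3 for RARα RA. Shares found under the other diet were 71.4% for RARβ control and 94.1% for RXRα in each direction, and shares with RXRα were 33.3% (RARα control), 21.4% (RARα RA) and 61.1% (RARβ RA). With a window of 10 kb, member peaks were 6 for RARβ control and 27 for RARα RA, RAR gene peaks were 4 (RARβ control), 17 (RARα RA) and 15 (RARβ RA), RXR gene peaks were 2 for RARβ control, and 100% of RARβ control peaks were shared with RXRα. Fewer peaks enter each of these settings by construction. At equal length, chosen after seeing the data, the peak at the inner start of Rarb lay in the top 40.4%, 21.7%, 22.3%, 11.7%, 0.782% and 7.46%, so it stood higher under RA for all 3 receptors. For RARβ at the inner start of Rxrg the direction turned, with 25.7% under control and 45.1% under RA. Read depth is unknown, so a peak not called cannot be told apart from one below the limit of its library.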

Other observations

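The genes whose best peaks stood at the most similar places in the 6 lists were sought for each receptor gene, by Euclidean distance over the 6 places in percentage points. The comparison is a description over 6 lists that share their tissue. A best peak is that of the whole window and can lie at a neighbour. For Rxrb it was the peak at H2-K1 in all 6 lists, and for Rara the peak at Top2a in both RARβ lists. For Rarg it was a peak near Csad or Mfsd5 in every list except RARβ RA. In these lists the likeness is therefore that of the neighbour's peak. For Rarb they were Mcf2l and F7, at 6.69 points and with the same peaks, and Clpsl2 at 6.75. F7 encodes the liver's coagulation factor VII. For Rara they were Drc3 at 4.23, Hadh at 5.43 and Cyp2u1 at 6.03 points. For Rarg they were Gpt2 at 3.42, Lhpp at 3.64 and Kctd6 at 3.83. Rxra had no gene as near as those of the other members, with Cyp2c40 at 12.4, Tapt1 at 13.0 and Gsx2 at 15.0 points. For Rxrb, Apoa5, Zpr1 and Bud13, which adjoin each other and have the same best peaks, lay at 3.24 points. Apoa5 encodes an apolipoprotein made in the liver. For Rxrg they were Rad54l2 at 4.64, Nptx1 at 5.32 and Slc25a45 at 5.48 points.

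Of the 94 regions, 12 were called for RARα alone, of which the 3 highest-scoring follow. A region 31959 bp inside Rara had RARα scores of 202.25 in the control list (top 25.7%) and 259.83 under RA (top 19.5%) and no other peak. In the Rarg window, a region 7292 bp from the start of the integrin gene Itgb7 had RARα scores of 186.02 (top 28.8%) and 282.05 (top 16.9%) and again no peak of RARβ or RXRα. A region 47749 bp from the outermost start of Rara, just past the end of the gene, had a RARα score of 204.01 in the control list (top 25.4%) and of 75.36 under RA (top 75.8%). The 3 regions were chosen after their values were seen.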
